A study of Mus musculus with 4 samples.

Results

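The natriuretic peptides and cardiomyocyte energy genes are 8 genes, Nppa, Nppb, Ankrd1, Ckm, Ckb, Ckmt2, Mb and Fabp3, taken by symbol from a table of 20701 gene symbols. All 8 were in the table, and 4 of them (Nppb, Ankrd1, Ckb and Fabp3) had enough reads to be tested. RNA-Seq had been done on cardiac progenitor cells (CPCs) derived from E14 Tg(Nkx2-5-EmGFP) mouse embryonic stem cells, in which a green fluorescent protein reports the cardiac transcription factor gene Nkx2-5. The ES cells were kept on mitomycin-treated feeder fibroblasts, differentiated, and sorted for the reporter on day 5. The 2 control libraries came from 2 control clones of this reporter line, and the 2 Isl1_KO libraries from 2 Isl1-/- clones of it, made by CRISPR/Cas9 with a pair of guide RNAs and puromycin selection, so that each library stands for 1 clone. The sample labels name a knockout, which is followed here, although the submitted design text calls it a knockdown.

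Natriuretic peptides are hormones that heart muscle releases when it is stretched, and in the embryo Nppa marks the working myocardium of the growing chambers. Nppa encodes atrial natriuretic peptide and Nppb brain natriuretic peptide. Ankrd1 encodes a cardiac ankyrin repeat protein that sits at the sarcomere and in the nucleus and responds to load. The remaining genes serve the energy supply of a contracting cell: creatine kinases pass phosphate between ATP and creatine (Ckm, the muscle subunit; Ckb, the brain subunit, which early embryonic heart also uses; Ckmt2, the sarcomeric mitochondrial form), Mb encodes myoglobin, which stores oxygen, and Fabp3 the fatty acid binding protein of heart muscle.

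The promoters of all 8 genes were searched for the short sites that cardiac transcription factors are known to bind. Those of 4 genes are shown. Each line gives the 250 bases before the start of transcription, 5′ to 3′ on the strand of the gene, from RefSeq on GRCm38.p6. Nppa and Nppb are shown because they are neighbours on chromosome 4, Ankrd1 because its Isl1_KO libraries lay on either side of the controls, and Ckb because it had the largest difference among the 4 genes tested. Capitals mark matches on either strand to TGATAA or AGATAA (the GATA factor site), CATTCC (the M-CAT site of TEAD factors), TCACACC (a T-box core), AAGTG (an NK2 homeobox core) and TATAAA (the TATA box).
Nppa, chr4:148000472-148000721, plus strand: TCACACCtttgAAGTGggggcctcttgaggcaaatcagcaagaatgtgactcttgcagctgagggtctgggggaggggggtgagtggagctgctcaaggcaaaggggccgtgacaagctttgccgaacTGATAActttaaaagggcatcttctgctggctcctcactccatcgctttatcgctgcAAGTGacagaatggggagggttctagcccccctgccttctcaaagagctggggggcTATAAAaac
Nppb, chr4:147985650-147985899, plus strand: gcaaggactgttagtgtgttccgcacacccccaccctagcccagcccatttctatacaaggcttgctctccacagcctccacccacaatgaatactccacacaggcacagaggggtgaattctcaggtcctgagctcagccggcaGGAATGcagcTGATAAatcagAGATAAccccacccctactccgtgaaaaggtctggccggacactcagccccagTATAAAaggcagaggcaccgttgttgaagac
Ankrd1, chr19:36119845-36120094, minus strand: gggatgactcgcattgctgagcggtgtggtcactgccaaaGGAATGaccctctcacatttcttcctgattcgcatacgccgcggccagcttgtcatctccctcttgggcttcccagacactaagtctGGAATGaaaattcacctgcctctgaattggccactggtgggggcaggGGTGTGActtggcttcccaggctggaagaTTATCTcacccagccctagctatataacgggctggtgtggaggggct
Ckb, chr12:111672339-111672588, minus strand: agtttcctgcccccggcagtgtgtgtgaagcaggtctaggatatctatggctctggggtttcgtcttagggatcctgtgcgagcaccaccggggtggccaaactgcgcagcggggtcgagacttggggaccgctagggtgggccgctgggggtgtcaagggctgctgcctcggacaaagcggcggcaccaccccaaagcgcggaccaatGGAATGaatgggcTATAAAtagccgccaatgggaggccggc

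In the Nppa window the T-box core and one NK2 core lay 4 bases apart at the upstream end, followed by the TGATAA form of the GATA site, another NK2 core and the TATA box. In the Nppb window the TGATAA and AGATAA forms of the GATA site lay 5 bases apart, just after the M-CAT site and before the TATA box. The Ankrd1 window held 2 M-CAT sites, the T-box core and the AGATAA form, all on the other strand. The Ckb window held the M-CAT site and the TATA box. Of the genes not shown, Ckm had the T-box core and the NK2 core. Fabp3 and Mb had the NK2 core only, and Ckmt2 had no match. Over 32851 windows of the same length in the RefSeq table, 7.94% held TGATAA, 9.99% AGATAA, 12.6% the M-CAT site, 3.33% the T-box core, 40.7% the NK2 core and 12.4% the TATA box. The CArG box of serum response factor was searched as well, and none of the 4 windows shown held it, against 1.47% of all windows. Such matches are letters in a sequence, and no binding was measured here.

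Before the comparison of the set, Isl1 itself was examined as a check of the labels. Its counts were 309 and 326 in control and 17 and 24 in Isl1_KO, which gave -4.39 on the log2 scale (SE 0.212, adjusted p 0.00277 in edgeR). The libraries held 8821517 to 13186109 counts over 1 transcript entry per gene. The control pair was closer than the Isl1_KO pair: over the 10576 tested genes with at least 200 counts, the median gap between replicates was 0.0678 on the log2 scale in control and 0.161 in Isl1_KO. All 10 listed cardiomyocyte markers, such as Tnnt2 and Myh6, were detected in control. All 10 were called lower in Isl1_KO at the adjusted threshold of 0.05 in edgeR, as were 1.94% of all tested genes. Not all of these markers passed when either control library was left out. Their summed level was 2045 and 2129 CPM (counts scaled to library size) in control against 143 and 84.2 CPM in Isl1_KO. In sorted bulk cells, fewer cardiomyocytes and less of their RNA per cell cannot be told apart.

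Of the 8 genes, 4 were barely expressed in these day 5 progenitors, whichever the genotype. Per length of transcript, as RPKM, reads scaled for length and library size, the mean control level was 22.3 for Ankrd1, 18.7 for Ckb, 3.86 for Fabp3, 1.45 for Nppb, 0.716 for Nppa, 0.585 for Mb, 0.0404 for Ckm and 0 for Ckmt2. Of these, 4 lay below 1 RPKM and 2 above 10 RPKM. The 10 cardiomyocyte markers ranged from 4.15 to 351 RPKM in the same libraries, with a median of 78.0, and each of them lay above 6 of the 8 genes. Among neighbours in this order, Ankrd1 (20.6 and 24.0 RPKM) overlapped with Ckb (20.7 and 16.8 RPKM), and Nppa (0.664 and 0.768 RPKM) lay just above Mb (0.649 and 0.521 RPKM), within a few counts. In Isl1_KO the order of the means was the same, with Ankrd1 at 19.3, Ckb at 6.21, Fabp3 at 3.26 and Nppb at 1.12 RPKM.

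**Figure D1:**
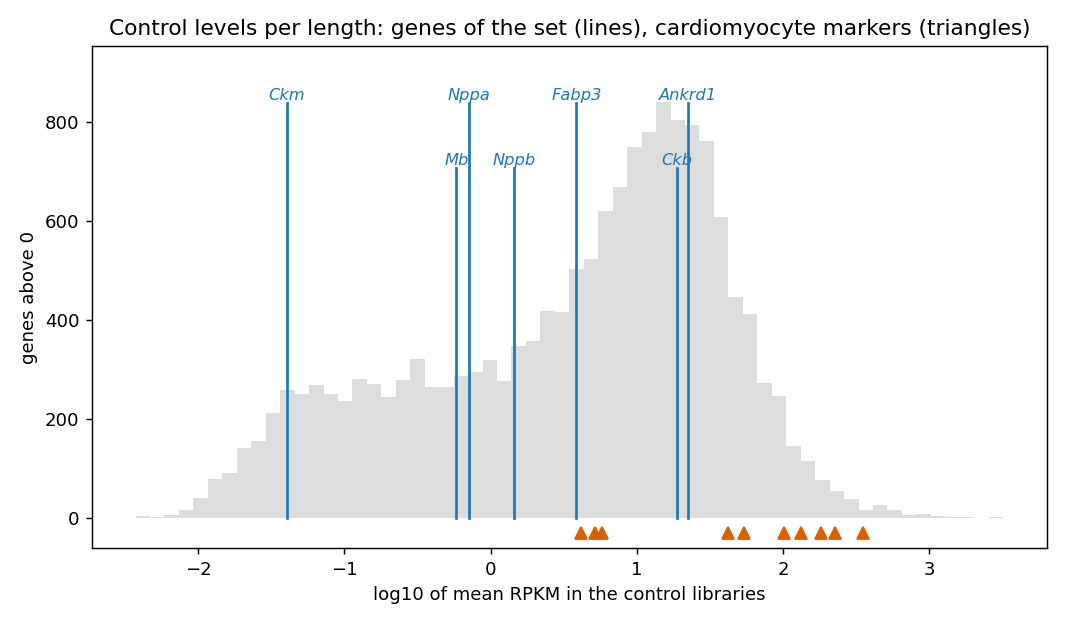
Distribution of the mean control level per length (log10 of RPKM, horizontal axis) over all genes above 0 (number of genes, vertical axis), with a line for each of the 7 genes of the set above 0 and a triangle for each of the 10 cardiomyocyte markers. Ckm, Mb and Nppa lie below 1 RPKM, Ankrd1 and Ckb lie in the bulk of expressed genes, and 7 of the markers lie to the right of every line.

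None of the 4 tested genes of the set passed the threshold. Of the 12715 genes tested, 2.45% passed edgeR's quasi-likelihood test (adjusted threshold 0.05), 1.94% lower and 0.503% higher in Isl1_KO. Among the 4 tested genes 0 were called, and 1 (Ckb) had an unadjusted p under 0.05, as did 23.3% of all tested genes. DESeq2 called 1 of the 4 (Ckb), beside 604 of the 16855 genes that it fitted. The median log2 fold change of the 4 was -0.29, beside -0.0027 for all tested genes. It became -1.47 without Isl1_KO replicate 1, -0.14 without Isl1_KO replicate 2 and -0.30 and -0.42 without control replicate 1 or 2. The groups did not overlap for 1 of the 4 (Ckb, lower in Isl1_KO), and 29.0% of all tested genes were lower in Isl1_KO without overlap.

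**Figure D2:**
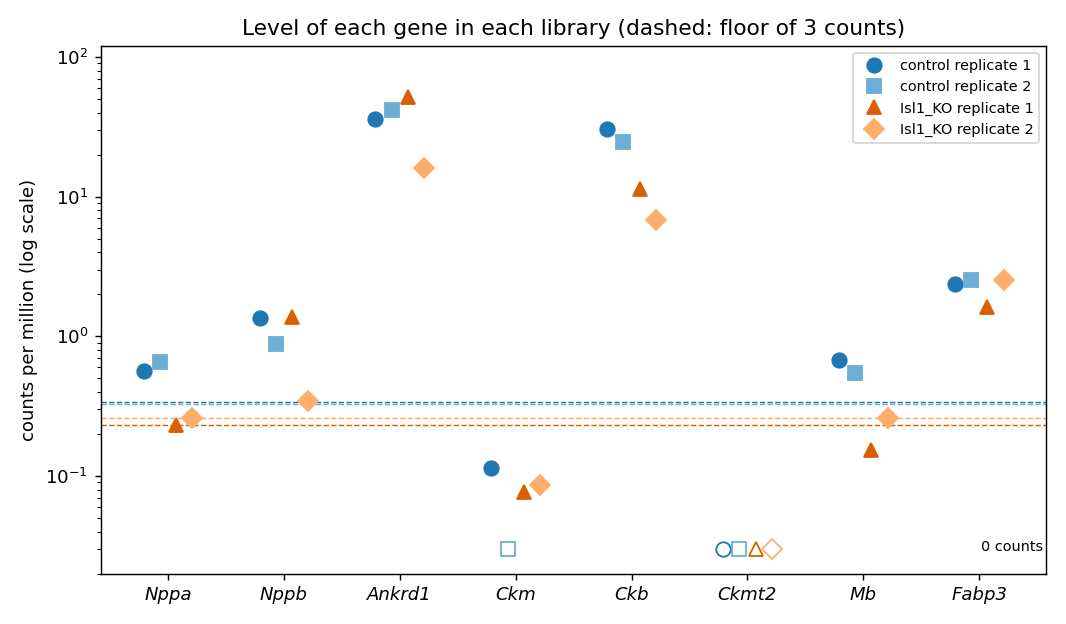
Level of the 8 genes (CPM, log axis) in the 2 control and 2 Isl1_KO libraries, 1 symbol per library; open symbols at the bottom are libraries with 0 counts, and dashed lines are the level of 3 counts in each library. Nppa, Mb, Ckm and Ckmt2 lie around or below the dashed lines, the Ankrd1 and Nppb symbols of Isl1_KO lie apart from each other, and the Ckb symbols of Isl1_KO lie below both controls.

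Nppa was near the limit of detection. Nppa (NCBIM37, the assembly of mm9, chromosome 4, 147374831 to 147376188, plus strand) had 5 and 6 counts in control, compared with 3 and 3 in Isl1_KO, which corresponded to 0.568, 0.657, 0.231 and 0.260 CPM. Both Isl1_KO libraries were below both controls and stood at the floor of 3 counts. The ratio of Isl1_KO to control was 0.399, with an exact 95% interval from counting alone of 0.121 to 1.18. A difference was therefore not detectable at this depth. An antisense transcript, Gm13054, shares 532 of the 865 exonic bases of Nppa on the other strand, and reads had been counted on both strands, so reads of this pair cannot be told apart.

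Nppb (chromosome 4, 147359897 to 147361314, plus strand), 14.9 kb from Nppa, had 12 and 8 counts in control, compared with 18 and 4 in Isl1_KO. Its level was 1.36 and 0.875 CPM in control and 1.38 and 0.347 CPM in Isl1_KO, so that 1 Isl1_KO library was as high as the controls and the other was lower. The log2 fold change was -0.33 (SE 0.684, 95% interval -2.06 to 1.41), with an edgeR adjusted p of 0.810. The direction turned to 0.31 without Isl1_KO replicate 2 and to 0.0096 without control replicate 1. Its nearest genes in pattern, by the distance described for Ankrd1, were Ptgfr (0.284), Mall (0.293) and Adgre5 (0.384).

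The genes around the natriuretic peptide pair were more abundant per length than Nppa, at 1.03 to 22.4 RPKM in control. Of 10 listed genes within 152 kb of Nppa all 10 were tested and 0 passed the threshold (2 had an unadjusted p under 0.05, against 23.3% of all tested genes, and DESeq2 called 0), with a median log2 fold change of -0.026. The closest, Clcn6, a chloride transporter gene whose 3′ end faces that of Nppa, was at 114 and 117 CPM in control against 111 and 109 CPM in Isl1_KO, a log2 fold change of -0.076 (SE 0.0623). The 2 with the largest differences were Fbxo44, at 0.94 (SE 0.490), and Mad2l2, at 0.72 (SE 0.137; edgeR adjusted p 0.0716).

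Ankrd1 was the most abundant gene of the set, and its Isl1_KO libraries disagreed. Ankrd1 (chromosome 19, 36186455 to 36194334, minus strand of NCBIM37) had 319 and 384 counts in control, compared with 671 and 184 in Isl1_KO. Scaled by depth this was 36.2 and 42.0 CPM in control, 51.6 CPM in Isl1_KO replicate 1 and 16.0 CPM in Isl1_KO replicate 2. One knockout clone was thus above both controls and the other below both.

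The log2 fold change of Ankrd1 was -0.21 (SE 0.517, 95% interval -1.52 to 1.11), with an edgeR adjusted p of 0.844. Without Isl1_KO replicate 1 the log2 fold change was -1.29 (edgeR adjusted p 1.8e-27), and without Isl1_KO replicate 2 it was 0.40 (edgeR adjusted p 1.6e-05). Each of these fits takes its spread from the control pair, which was close. The gap between the Isl1_KO libraries was 1.69 on the log2 scale, 3.23-fold, and 99.5% of the tested genes with at least 200 counts had a smaller one.

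Most markers of several cell types, mesenchymal and others, were also lower in Isl1_KO replicate 2 than in replicate 1. Of the smooth muscle markers 6 of 6 were lower there, with a summed level of 2566 and 2578 CPM in control, 2176 CPM in Isl1_KO replicate 1 and 747 CPM in replicate 2. Of the fibroblast and feeder markers 5 of 6 were lower there, with sums of 2444, 2384, 1562 and 645 CPM in the same order. No marker of these 2 lists was at 0 in a library. Of the endothelium markers 4 of 6 were lower in replicate 2 (sums 378, 377, 334 and 372 CPM), of the tested neural markers 3 of 3 (252, 250, 274 and 180 CPM), of the endoderm markers 3 of 4 (55.5, 54.9, 53.3 and 28.3 CPM) and of the blood markers 3 of 5 (176, 176, 138 and 130 CPM). Of the cardiomyocyte markers 7 of 10 were lower in replicate 2 (2045, 2129, 143 and 84.2 CPM). Of the pluripotency markers 0 of 4 were lower in replicate 2 (31.9, 32.9, 26.5 and 50.4 CPM). The same held for 0 of 3 tested skeletal muscle markers (24.7, 23.5, 17.6 and 22.4 CPM for their list). Among all tested genes 48.3% were lower in replicate 2. The part of any of these cell types in the level of Ankrd1 was not tested.

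The genes nearest to Ankrd1 in pattern, by Euclidean distance of centred log2 CPM over the 4 libraries among 10763 genes, were Nrcam (distance 0.220), Pla2g7 (0.226) and Gcnt2 (0.230). Nrcam, a neuronal cell adhesion gene, was at 7.95 and 8.97 CPM in control against 9.30 and 3.12 CPM in Isl1_KO. Of the list of ankyrin repeat genes and YAP targets, which also holds Ctgf and Cyr61, secreted matrix proteins, 7 of 8 were tested and 0 passed (0 had an unadjusted p under 0.05, and DESeq2 called 0), and 6 of the 7 were lower in Isl1_KO replicate 2 than in replicate 1. Ctgf was at 129 and 130 CPM in control against 127 and 52.2 CPM in Isl1_KO (log2 fold change -0.53, SE 0.392), and Tead1, a TEAD factor gene, had a log2 fold change of -0.22 (SE 0.108). Ankrd2, the skeletal muscle relative of Ankrd1, had 1, 0, 3 and 0 counts.

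**Figure D3:**
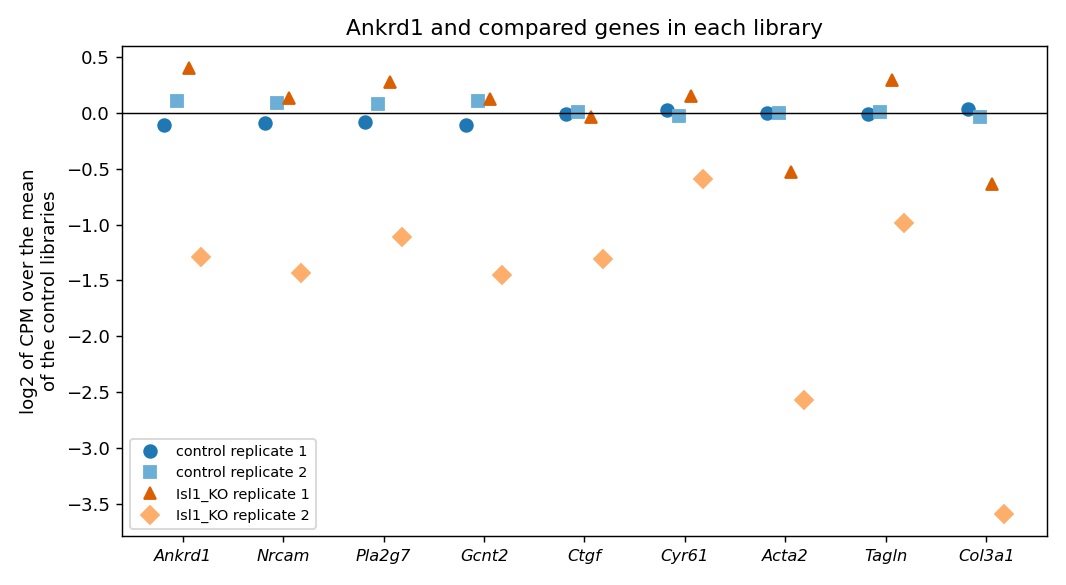
Level of Ankrd1, its 3 nearest genes in pattern and 5 genes of the YAP target, smooth muscle and fibroblast lists (picked for display after their values were seen) in each library, as log2 of CPM over the mean of the control libraries. For Ankrd1 the symbol of Isl1_KO replicate 1 lies at 0.40 and that of replicate 2 at -1.29, and replicate 2 is the lowest library for all 9 genes.

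In control nearly all creatine kinase transcripts per length were those of the brain subunit (97.3% and 96.4%). Its share was 91.3% in Isl1_KO replicate 1 and 69.0% in replicate 2. Ckb (chromosome 12, 112907566 to 112910549, minus strand of NCBIM37) gave 268 and 225 counts in control but 148 and 79 in Isl1_KO, whose libraries were deeper. Scaled by depth, the level was 30.4 and 24.6 CPM in control and 11.4 and 6.85 CPM in Isl1_KO, or 27.5 ± 4.10 against 9.12 ± 3.20 CPM (SD, n = 2 each). Both Isl1_KO libraries were below both controls.

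The log2 fold change of Ckb was -1.58 (SE 0.264, 95% interval -2.25 to -0.92). It missed the threshold over all genes (unadjusted p 0.00158, edgeR adjusted p 0.0582). It passed in DESeq2 (adjusted p 3.4e-05), without the filter on low counts (edgeR adjusted p 0.0273) and with the replicate number as a block (edgeR adjusted p 0.00983). Leaving out a library gave values from -2.00 to -1.27, which missed the threshold without either control library (edgeR adjusted p 0.510 and 0.334) and passed it without either Isl1_KO library.

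The 3 genes nearest to Ckb in pattern were Pcdha11, Pcdha7 and Pcdha9 (distance 0.025 each), isoforms of the clustered protocadherins that share exons and had identical counts, so that they stand for 1 pattern. That pattern was 25.3 and 20.2 CPM in control and 9.30 and 5.55 CPM in Isl1_KO, or -1.61 on the log2 scale (SE 0.273, adjusted p 0.0603 in edgeR).

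The muscle forms of creatine kinase were not detectable above the floor. Ckm (chromosome 7, 19996443 to 20006932, plus strand) had 1, 0, 1 and 1 counts, at or under the floor of 3 counts in every library. Ckmt2 (chromosome 13, 91992992 to 92016490, minus strand of NCBIM37) had 0 counts in all 4 libraries, which allows levels of up to 0.341 and 0.328 CPM in control and 0.231 and 0.260 CPM in Isl1_KO. Neither allows a fold change to be given, and the Ckm exons share 451 bases with the opposite-strand gene A930016O22Rik.

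Set per length, Ckm made up 0.194% ± 0.275 of Ckm plus Ckb in control and 1.00% ± 0.427 in Isl1_KO (SD, n = 2 each). The difference of 0.809 percentage points rested on 1 Ckm read in each of 3 libraries and none in the other, and the exact permutation p (2-sided) was 0.333, the smallest that 2 against 2 can give. As shares of reads, with exact Clopper-Pearson 95% intervals, Ckm took 1 of 269 (0.00941% to 2.05%) and 0 of 225 in control and 1 of 149 (0.0170% to 3.68%) and 1 of 80 (0.0316% to 6.77%) in Isl1_KO. These intervals overlap.

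Ckmt1, the ubiquitous mitochondrial creatine kinase, had 7 and 9 counts in control, compared with 14 and 37 in Isl1_KO (log2 fold change 1.23, SE 0.650; edgeR adjusted p 0.321). Its share of all creatine kinase transcripts per length was 2.36% and 3.59% in control and 8.04% and 30.1% in Isl1_KO, the last resting on the 37 reads of replicate 2. The exact permutation p was again 0.333. The summed level of the 4 genes was 21.3 and 17.4 RPKM in control and 8.49 and 6.76 RPKM in Isl1_KO.

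**Figure D4:**
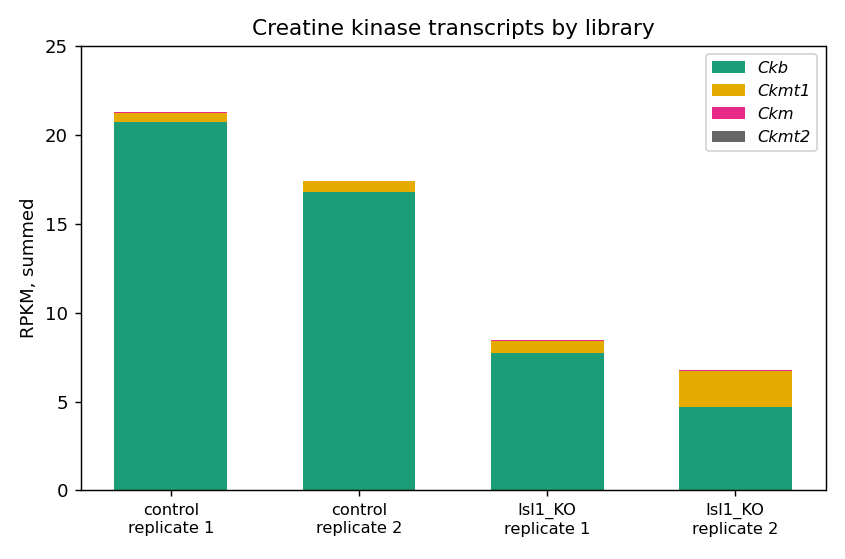
Stacked levels per length (RPKM) of the 4 creatine kinase genes in each library. Ckb fills almost the whole bar in control, at 20.7 and 16.8 RPKM, and stands at 7.75 and 4.67 RPKM in Isl1_KO, where Ckmt1 reaches 2.03 RPKM in replicate 2.

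Further genes of energy transfer were taken from a list. Of 10 listed genes of creatine supply and adenylate exchange 9 were tested and 0 passed (4 had an unadjusted p under 0.05, against 23.3% of all tested genes, and DESeq2 called 0), with a median log2 fold change of -0.27. Ak1, the muscle and brain form of adenylate kinase, was at 41.3 and 35.9 CPM in control against 25.1 and 25.2 CPM in Isl1_KO, or -0.62 on the log2 scale (SE 0.114, adjusted p 0.0684 in edgeR). It missed the threshold in DESeq2 on all genes with a count (adjusted p 0.0534). It passed in DESeq2 run on the genes that edgeR tested (adjusted p 0.0485), an alternative chosen after seeing the data. Slc6a8, the creatine transporter, was at -0.41 (SE 0.124) and Gamt, which makes creatine, at -0.42 (SE 0.194).

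Myoglobin was as scarce as Nppa. Mb (chromosome 15, 76845919 to 76881100, minus strand of NCBIM37) had 6 and 5 counts in control, compared with 2 and 3 in Isl1_KO, or 0.681, 0.547, 0.154 and 0.260 CPM. Both Isl1_KO libraries were below the controls and at or under the floor of 3 counts. The ratio of Isl1_KO to control was 0.333, with an exact 95% counting interval of 0.0906 to 1.04. The 2 other Mb transcripts in the table gave 6, 4, 2 and 2 counts each. The Mb exons share 64 of 1252 bases with Apol6 on the other strand, which had 1, 4, 1 and 0 counts. Reads of the shared bases cannot be told apart.

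Of the list of globins and genes of the response to low oxygen, 7 of 8 were tested and 0 passed in edgeR. An unadjusted p under 0.05 in edgeR was found for 3, against 23.3% of all tested genes. DESeq2 called 1 of the list, Ldha, beside 604 of the 16855 genes that it fitted. Cygb, cytoglobin, was at 26.5 ± 1.71 CPM in control against 12.7 ± 9.29 CPM in Isl1_KO, where it had 251 counts in replicate 1 and 71 in replicate 2 (log2 fold change -1.04, SE 0.488; edgeR adjusted p 0.276). Ldha, the lactate dehydrogenase of anaerobic glycolysis, was at 754 ± 3.51 and 1059 ± 143 CPM (SD, 2 libraries per group), or 0.49 on the log2 scale (SE 0.107, adjusted p 0.0876 in edgeR and 0.00926 in DESeq2).

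Fabp3 (chromosome 4, 129985839 to 129992707, plus strand) had 21 and 23 counts in control, compared with 21 and 29 in Isl1_KO. Its level was 2.38 and 2.52 CPM in control and 1.61 and 2.52 CPM in Isl1_KO, so that the groups overlapped. On the log2 scale the difference was -0.26 (SE 0.329, 95% interval -1.09 to 0.58, adjusted p 0.682 in edgeR), and it turned to 0.038 without Isl1_KO replicate 1. Its exons share 81 of 823 bases with Zcchc17 on the other strand, which had 199 to 349 counts. Its nearest genes in pattern were Pdp2 (distance 0.042), B4galt6 (0.052) and Pik3c2b (0.058).

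Fabp3 was not the only fatty acid binding gene with low reads. Of the 14 listed genes of fatty acid binding and uptake 6 were tested, and Fabp1, Fabp2, Fabp6 and Fabp9, mostly forms of gut, liver and testis, had 0 counts in all libraries. Fabp5 and Fabp7 were at 1.59 and 3.31 RPKM in control, beside 3.86 RPKM for Fabp3. In edgeR's test 1 of the 6 was called lower, as were 1.94% of all tested genes, and 0 higher. An unadjusted p under 0.05 in edgeR was found for 2 of the 6, against 23.3% of all tested genes. Without overlap of the groups 4 were lower in Isl1_KO, against 29.0% of all tested genes. The gene called was Acsl1, which activates long-chain fatty acids. Acsl1 fell from 37.2 ± 0.925 to 16.3 ± 0.970 CPM (SD over 2 libraries), or by 1.19 on the log2 scale (SE 0.108, adjusted p 0.0141 in edgeR). It no longer passed when a control library was left out (edgeR adjusted p 0.225 and 0.242).

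Of the genes that process the natriuretic peptides or carry their signal, 2 were lower in Isl1_KO. Of the 10 listed genes 8 were tested. In edgeR's test 2 were called lower, as were 1.94% of all tested genes, and 0 higher. The median log2 fold change was -0.55. DESeq2 called 1 of the list, beside 604 of the 16855 genes that it fitted. An unadjusted p under 0.05 in edgeR was found for 6 of the 8, against 23.3% of all tested genes. All 8 were lower in Isl1_KO without overlap, as were 29.0% of all tested genes. Corin, the protease that cuts pro-atrial natriuretic peptide, fell from 22 and 21 counts to 5 and 5, or from 2.40 ± 0.141 to 0.409 ± 0.0350 CPM (SD, n = 2 each). On the log2 scale it fell by 2.52 (SE 0.357, adjusted p 0.0397 in edgeR and 0.0648 in DESeq2).

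Prkg1, the cyclic GMP-dependent kinase that acts below the natriuretic peptide receptors, fell from 28.0 ± 0.884 to 4.01 ± 2.48 CPM (SD over 2 libraries), or by 2.78 on the log2 scale (SE 0.377, adjusted p 0.0359 in edgeR). It had 252 and 250 counts in control, compared with 75 and 26 in Isl1_KO. Both genes missed the threshold when a control library was left out, Corin at an edgeR adjusted p of 0.515 and 0.460 and Prkg1 at 0.338 and 0.276. Prkg1 is also a smooth muscle gene. It was at 28.6 and 27.4 CPM in control, 5.77 CPM in Isl1_KO replicate 1 and 2.26 CPM in replicate 2. The smooth muscle markers summed to 2566, 2578, 2176 and 747 CPM in the same order. The part of smooth muscle cells in the level of Prkg1 was not tested.

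The receptors did not pass. The guanylyl cyclase receptors Npr1 and Npr2 were at log2 fold changes of -0.60 (SE 0.169) and -0.51 (SE 0.233), and the clearance receptor Npr3 at -2.63 (SE 0.711), with edgeR adjusted p of 0.133, 0.267 and 0.124. Npr3 had 33 and 40 counts in control, compared with 15 and 1 in Isl1_KO. The third peptide gene, Nppc, had 0 counts in all libraries.

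A pair of regulators of energy genes were lower in Isl1_KO as well. Of 12 listed regulators 10 were tested. In edgeR's test 2 were called lower, as were 1.94% of all tested genes, and 0 higher. The median log2 fold change was -0.035. An unadjusted p under 0.05 in edgeR was found for 3 of the 10, against 23.3% of all tested genes. Without overlap of the groups 4 were lower and 4 higher in Isl1_KO, against 29.0% and 29.1% of all tested genes. Esrrg, a nuclear receptor of oxidative metabolism, fell from 49 and 67 counts to 3 and 3 (-4.66 on the log2 scale, SE 0.369, adjusted p 0.00902 in edgeR), and the ratio of Isl1_KO to control was 0.0378 with an exact 95% counting interval of 0.0136 to 0.0849. Ppargc1a, the coactivator PGC-1 alpha, had 14 and 20 counts in control, compared with 0 and 0 in Isl1_KO, at least 7.70-fold lower against a floor of 3 counts per library (edgeR adjusted p 0.0454).

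Neither gene has 10 counts in every library, and that filter removed both, and Esrrg missed the threshold without either control library (edgeR adjusted p 0.0980 and 0.125). Ppargc1a missed it without control replicate 1 (edgeR adjusted p 0.390) and was not tested without control replicate 2. The relative Ppargc1b, at 14 and 15 counts in control and 37 and 64 in Isl1_KO, was at 1.36 (SE 0.427; edgeR adjusted p 0.156).

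**Figure D5:**
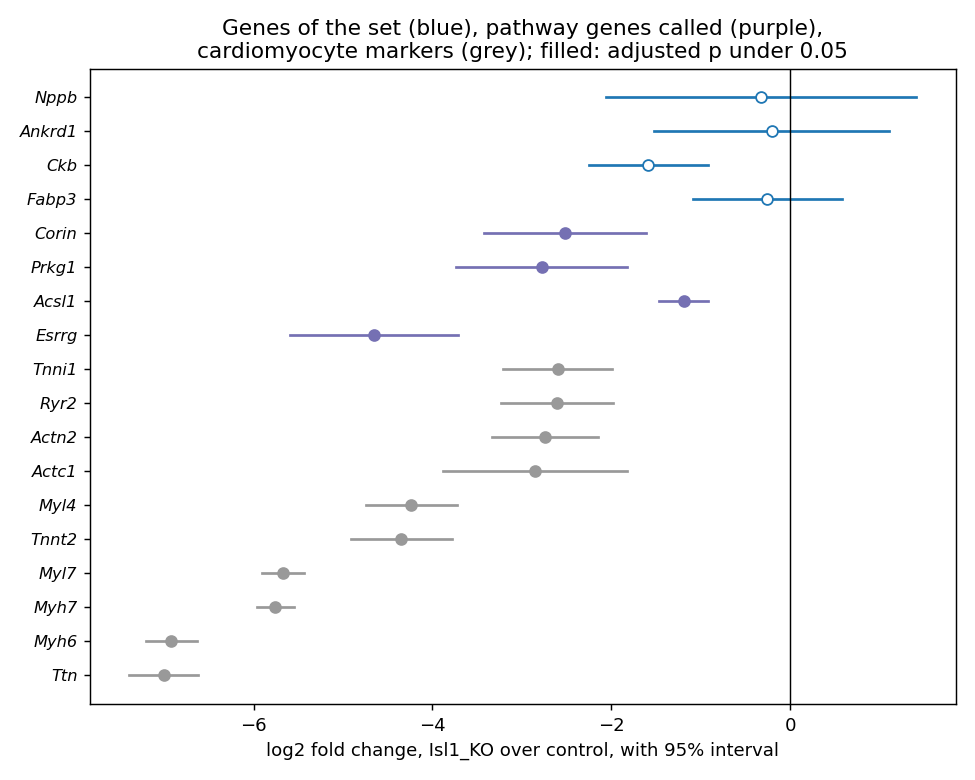
Log2 fold change of Isl1_KO over control with its 95% interval (horizontal axis). Shown are the 4 tested genes of the set, 4 (not all) of the pathway genes called lower, and the 10 cardiomyocyte markers. Filled symbols passed the adjusted threshold. The intervals of Nppb, Ankrd1 and Fabp3 include 0, that of Ckb runs from -2.25 to -0.92, and the markers lie between -7.01 and -2.60.

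The wide intervals set what could be seen. The lower bound of the 95% interval was -2.06 for Nppb, -1.52 for Ankrd1, -2.25 for Ckb and -1.09 for Fabp3. Each lay above the point estimate of Tnni1 (log2 fold change -2.60), the smallest decrease among the 10 markers. The interval of Tnni1 itself was not compared. Nppa and Mb were not tested, and their counting intervals reached down to ratios of 0.121 and 0.0906. Of 8 markers of skeletal muscle, which uses Ckm and Mb as well, 3 (Acta1, Tnni2 and Actn3) were above 1 RPKM in each group, up to 9.73 RPKM in control and 7.94 RPKM in Isl1_KO, and 0 of these 3 tested markers passed in edgeR (0 at an unadjusted p under 0.05, and 0 in DESeq2). Their list summed to 24.7, 23.5, 17.6 and 22.4 CPM, while the defining factors Myod1 and Myf5 had 0 counts in all libraries. The other factors of the list, Myog, Myf6 and Pax7, had reads, but too few to be tested. Nkx2-5, whose reporter was used for the sort, was at 21.1 and 19.8 CPM in control against 4.77 and 4.34 CPM in Isl1_KO (-2.16 on the log2 scale, SE 0.154, adjusted p 0.00703 in edgeR), and it missed the threshold without either control library (edgeR adjusted p 0.134 and 0.108).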

How the data were processed

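Reads had been aligned by the authors to mm9 (STAR), and HOMER had been used to count those in exons, per RefSeq transcript and without regard to strand. Versions are not given in the sources used here. These deposited counts are unscaled, and a read can count for several transcripts of its gene. The RPKM values that the authors derived with edgeR served here as a check only: recomputed values differed by at most 0.751% for entries with at least 200 counts. The authors' deposited log2 fold changes, p-values, Wald score and mean signal come from their DESeq2 comparison and were not used. The number of per-sample columns not matched to a sample was 0.

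Each of 20701 symbols was represented by its transcript with the most reads over the 4 libraries (the first in the table where sums tied). Groups were compared in edgeR 4.0.16 under R 4.3.3 by quasi-likelihood (TMM factors, filterByExpr, no covariate, 2-sided), and p-values were adjusted over 12715 genes by Benjamini-Hochberg, with the threshold at 0.05. SE values come from the coefficient and its F statistic, and CPM and the RPKM printed here use effective library sizes. The tests were tried first on simulated data. Alternatives were DESeq2 1.42.0 (on all genes with a count unless stated), RLE factors, other filters, all transcript entries, the replicate block and leaving out each library. The criteria of the study (absolute log2 fold change over 0.58, unadjusted p under 0.05) were also applied. Exact tests and intervals used scipy 1.17.1. Counting intervals and floors cover counting error only, since no molecular identifiers are mentioned.

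The genes of the set and all lists were chosen with earlier results of these data known. Genes named are the 8 of the set, Isl1, Nkx2-5, in each pathway list those past the threshold (or the 2 with the largest absolute log2 fold change where none passed), and for each tested gene of the set the 3 nearest in pattern whose mean log2 CPM reached 2. Other list genes were named after their values were seen. Positions were taken from GENCODE vM1 (NCBIM37).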

Additional observations from a re-analysis of the deposited data

How the results depend on the processing

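Isl1 kept its direction and its side of the threshold under all 11 alternatives (-4.74 to -4.08 when one library was left out). The 311 genes called became 604 with DESeq2 on all genes with a count, 601 with DESeq2 on the genes that edgeR tested (an alternative chosen after seeing the data), 492 in edgeR without a filter and 993 at the criteria of the study, 217 with at least 10 counts in every library, and 27 to 6350 when one library was left out: 27 and 29 without a control library, 4176 and 6350 without an Isl1_KO library, whose spread then comes from the close control pair. The count of genes of the set called lower, 0, became 1 (Ckb) with DESeq2 on either set of genes, without a filter, with the replicate block and at the criteria of the study, and 0 to 2 when one library was left out; the count called higher, 0, became 0 to 1. Leaving out one library turned the direction of 3 genes of the set, with ranges of -1.29 to 0.40 for Ankrd1, -1.65 to 0.31 for Nppb and -0.60 to 0.038 for Fabp3, and the cause was not tested. The Ckm share moved between 0.507 and 1.11 percentage points without one library.

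A replicate block gave 454 calls, 294 of them among the 311, Isl1 was at -4.39, and Ckb passed (-1.62, edgeR adjusted p 0.00983). Deviations from the group means had a correlation of r 0.014 between libraries of the same number (12715 genes). This value alone cannot tell whether such libraries shared a step of preparation, which was not tested. Without the filter on low counts Nppa was at -1.27 (edgeR adjusted p 0.377) and Mb at -1.52 (edgeR adjusted p 0.325). A floor of 3 counts, 0.231 to 0.341 CPM, limits what can be said of Nppa, Ckm, Ckmt2 and Mb.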
